A study of Homo sapiens with 4 samples.

Results

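The RNA of 10 core and accessory subunits of Polycomb repressive complex 2 (PRC2) was followed in pooled CRISPR-edited human pluripotent stem cells (hPSC) and in ectoderm made from them. These genes, EZH1, EZH2, EED, SUZ12, JARID2, MTF2, PHF19, AEBP2, RBBP4 and RBBP7, were taken by name from the 60674 features in each count matrix. In both groups, hPSC labelled as the H9 embryonic stem cell line had received lentivirus carrying a pooled guide library with EGFP and a 22-nucleotide guide barcode, and a second virus carrying Cas9 with mCherry. Cells were sorted on fluorescence and recovered for 1 week. The ectoderm group was then differentiated, and the hPSC group is labelled as infected and sorted only, although the protocol text shared by both groups goes on to differentiation. Each group was 1 droplet 3′ library, so every comparison between them has no replicate, no test was run, and the intervals given cover counting error only. Different guide pools were used for the 2 libraries, so the pool, the library and the cell state cannot be told apart.

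PRC2 places methyl groups on lysine 27 of histone H3, a mark of silenced developmental genes, and it is known in pluripotent cells for holding lineage regulators off until differentiation. EZH2 or its paralogue EZH1 is the methyltransferase, EED binds the finished mark and stimulates the enzyme, SUZ12 is the scaffold, and RBBP4 or RBBP7 binds histones. MTF2 and PHF19, both Polycomb-like proteins, mark the form called PRC2.1, and JARID2 and AEBP2 define PRC2.2. TOP2A, a topoisomerase, and MKI67, a coat protein of mitotic chromosomes, are markers of dividing cells and are highest in G2 and M phase.

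After filtering, the ectoderm library held 16360 cells with 91249888 unique molecular identifiers (UMIs, 1 per captured transcript), a median of 4499 per cell. In the hPSC library 15326 cells were kept, with 83246015 UMIs in all and a median of 4807.5 per cell. Of 13 neural ectoderm progenitor markers, 12 reached 5 CPM (UMIs of the gene per 1000000 UMIs) in at least 1 library. Of the 13, 11 reached 20 CPM and were at least 2-fold higher in ectoderm, with list sums of 2570 CPM in ectoderm against 367 CPM in hPSC. The 13 pluripotent markers summed to 2909 CPM in ectoderm against 3268 CPM in hPSC. Of the 10 of these that reached 20 CPM, 5 were at least 2-fold lower and 1 at least 2-fold higher in ectoderm. The endoderm list stayed at or under 1.55 CPM in sum in both libraries, and the blood and endothelial list at or under 0.300 CPM. Other lineage lists were not near 0: surface ectoderm markers summed to 78.4 CPM in ectoderm against 78.9 CPM in hPSC, neural crest to 57.5 against 48.5, neuron to 21.0 against 48.4, mesoderm to 12.6 against 35.6, amnion to 13.8 against 20.1 and mesenchyme to 13.1 against 10.6. An expression check of cell identity did not match the named line in 2 of the 2 libraries, and 78 cell barcodes occurred in both. No cell type that should lack these genes was identified, so no background from free RNA could be measured for the shares of cells with a UMI.

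Promoter sequences are shown for 4 members that the results turn on. SUZ12 and EZH2 had RNA that varied most with S phase genes in at least 1 library. RBBP4 differed most between the libraries, and MTF2 varied most with TOP2A and MKI67 in hPSC. The sequences come from RefSeq on GRCh38.p14, run 5′ to 3′ towards the gene, and stop where either RefSeq or GENCODE starts the transcript. Capitals mark 3 kinds of letters searched on both strands, an E2F motif (TTTCCCGC, TTTCGCGC, TTTGCCGC or TTTGGCGC), the cell cycle homology region CHR (TTTGAA or TTCGAA) and the CCAAT box (CCAAT). They cover chr17:31936757-31937006 (+) for SUZ12, chr7:148884322-148884541 (-) for EZH2, chr1:32650958-32651141 (+) for RBBP4 and chr1:93079033-93079234 (+) for MTF2.
SUZ12: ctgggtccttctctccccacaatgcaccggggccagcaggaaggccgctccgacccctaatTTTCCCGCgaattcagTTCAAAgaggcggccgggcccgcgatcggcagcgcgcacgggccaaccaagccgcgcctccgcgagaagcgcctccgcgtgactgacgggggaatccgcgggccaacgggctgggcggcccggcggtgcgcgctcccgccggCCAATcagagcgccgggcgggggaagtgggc
EZH2: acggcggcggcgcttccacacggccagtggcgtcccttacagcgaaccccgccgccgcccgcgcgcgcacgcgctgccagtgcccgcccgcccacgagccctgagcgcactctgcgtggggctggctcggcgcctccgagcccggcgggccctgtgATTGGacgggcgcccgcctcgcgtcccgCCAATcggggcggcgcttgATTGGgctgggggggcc
RBBP4: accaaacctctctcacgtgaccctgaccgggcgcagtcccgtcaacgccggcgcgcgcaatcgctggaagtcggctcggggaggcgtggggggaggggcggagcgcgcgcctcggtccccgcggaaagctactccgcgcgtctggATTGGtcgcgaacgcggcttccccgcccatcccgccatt
MTF2: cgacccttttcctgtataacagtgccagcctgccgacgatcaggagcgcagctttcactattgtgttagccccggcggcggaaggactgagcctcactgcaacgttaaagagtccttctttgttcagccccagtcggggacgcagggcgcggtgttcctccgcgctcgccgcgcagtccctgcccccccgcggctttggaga
The SUZ12 stretch held 1 E2F match, 1 CHR match on the opposite strand and 1 CCAAT box. The EZH2 stretch held 3 CCAAT boxes, the RBBP4 stretch held 1, and MTF2 held none of the 3 motifs. The 10 members had 15 RefSeq windows of 250 bases before a start. These do not include every GENCODE start (those of AEBP2, PHF19 and JARID2 are not covered), and the RBBP4 windows share bases with each other. An E2F match was present for 4 members (EZH1, SUZ12, PHF19 and AEBP2). It was in 4 of the 15 windows, against 2.79% of 35116 human promoter windows. A CCAAT box was present in 10 of the 15 windows, against 32.0% of all windows, and the CHR letters in 1 of the 15, against 14.3%. A match is a description of the letters, not evidence of a bound factor.

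JARID2 was the most abundant subunit RNA and the catalytic subunits were among the scarce ones, in the same order for the first 8 genes in both libraries. JARID2, which guides PRC2 to chromatin, had 649 CPM in ectoderm and 634 CPM in hPSC, above 98.6% and 98.5% of genes at 1 CPM or more. Its RNA was found in 87.8% of ectoderm cells and 90.1% of hPSC. RBBP4 and MTF2 followed, and RBBP7, SUZ12 and AEBP2 formed a middle range between 54.5 and 75.2 CPM. RBBP7 and SUZ12, neighbours in that order, lay close together, at 75.2 and 72.4 CPM in ectoderm and at 75.0 and 73.0 CPM in hPSC, with overlapping counting intervals in hPSC and in ectoderm. EZH2 had 28.4 CPM in ectoderm and 29.6 CPM in hPSC, and was found in 14.3% of ectoderm cells and 14.6% of hPSC. EED had 27.5 CPM in ectoderm and 26.0 CPM in hPSC, and its interval overlapped that of EZH2 in ectoderm but not in hPSC. EZH1 and PHF19 were the lowest, under 16 CPM in both libraries. These levels were not divided by gene length, since 1 UMI was taken as 1 captured transcript end. Whether reads from introns were counted is not given in the sources used here. A relation of this order to gene length was not tested.

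**Figure D1:**
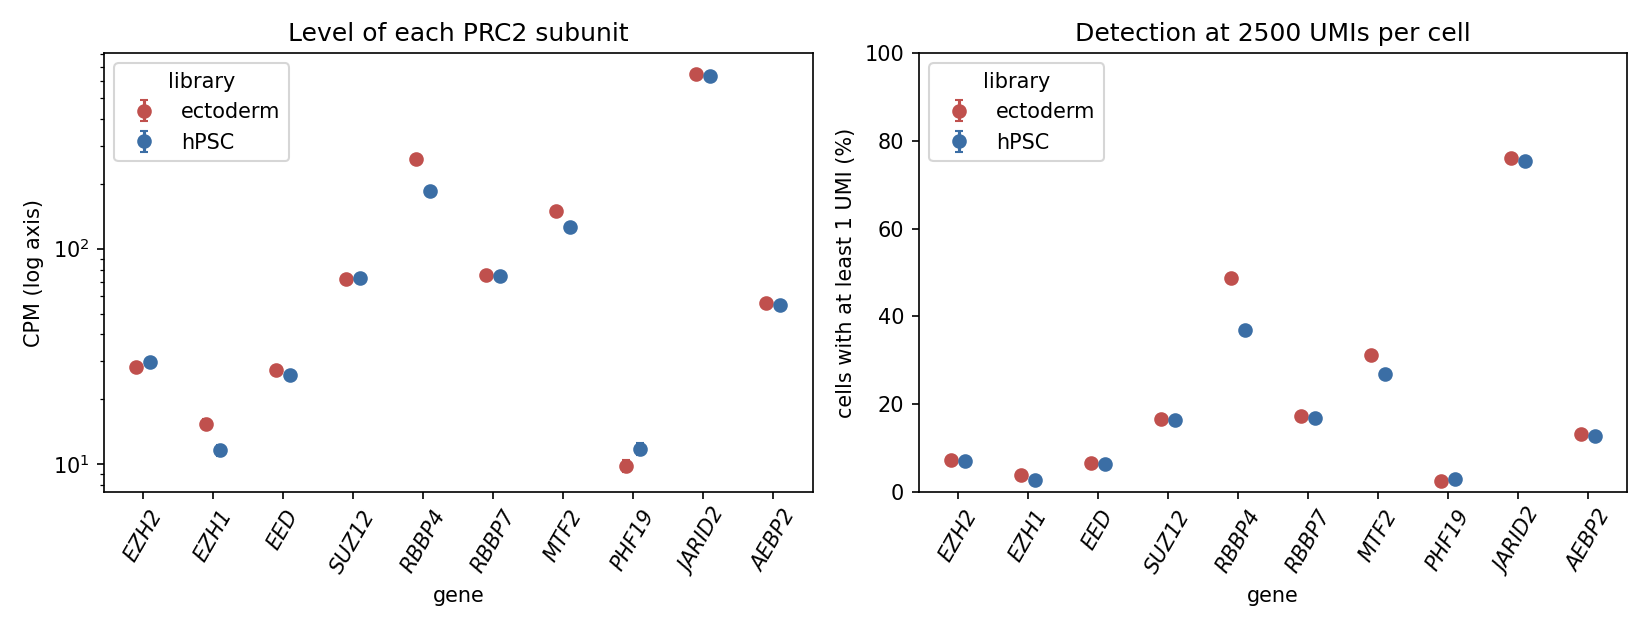
Level of each subunit in CPM on a log axis (left) and percentage of cells with at least 1 UMI after every cell was thinned to 2500 UMIs (right), for ectoderm and hPSC. Bars are 95% counting intervals, mostly smaller than the points. JARID2 lies highest and EZH1 and PHF19 lie under 16 CPM in both libraries, and RBBP4 shows the widest gap between libraries.

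The 10 subunits differed little between ectoderm and hPSC, with RBBP4 as the widest difference. A gene was called higher or lower where it reached 20 CPM in at least 1 library and differed by at least 1 on the log2 scale, a rule of size and not a test. Of the 10 members 8 reached 20 CPM, 0 were called higher and 0 lower, against 3.25% and 4.03% of all 6249 genes at that level. The median log2 ratio of the 10 members was 0.04, beside -0.03 for all genes at that level. Summed over the 10 members, the level was 1345 CPM in ectoderm against 1227 CPM in hPSC.

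Among the core subunits, RBBP4 had 261 CPM in ectoderm and 186 CPM in hPSC, a log2 ratio of 0.49 (interval 0.46 to 0.52) that lay above 88.2% of genes tested. At an equal 2500 UMIs per cell it was found in 48.8% of ectoderm cells (47.98 to 49.6%) and 36.9% of hPSC (36.1 to 37.7%), so more cells held its RNA in ectoderm at matched depth. Its paralogue RBBP7 had 75.2 CPM in ectoderm and 75.0 CPM in hPSC, and RBBP4 made up 77.6% of the UMIs of the pair in ectoderm and 71.2% in hPSC. The gene SYNC overlaps the 3′ end of RBBP4 on the opposite strand and TXLNG overlaps RBBP7, and whether the counts used strand is not given in the sources used here. SYNC had 28.1 CPM in ectoderm and 18.5 CPM in hPSC, and adding its UMIs to RBBP4 gave a log2 ratio of 0.50. TXLNG had 28.0 CPM in ectoderm and 41.5 CPM in hPSC, and adding its UMIs to RBBP7 gave -0.17.

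The scaffold and the enzymes gave smaller values. SUZ12 had 72.4 CPM in ectoderm and 73.0 CPM in hPSC (log2 ratio -0.01, interval -0.06 to 0.04). Its partial copy SUZ12P1 was counted separately, with 21.8 CPM in ectoderm against 15.0 CPM in hPSC, and reads of the pair may be split; with both added, the ratio was 0.10. EZH2 had a ratio of -0.06 (-0.14 to 0.02) and EED 0.08 (-0.003 to 0.16), intervals that include 0. EZH1, the methyltransferase known from slowly dividing and differentiated cells, had 15.4 CPM in ectoderm and 11.6 CPM in hPSC, a ratio of 0.41 (0.29 to 0.53). EZH2 therefore made up 64.9% of the EZH1 and EZH2 UMIs in ectoderm (63.4 to 66.4%) and 71.9% in hPSC (70.4 to 73.4%).

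Of the accessory subunits, MTF2, which brings PRC2 to unmethylated CpG-rich DNA, had 150 CPM in ectoderm and 126 CPM in hPSC (log2 ratio 0.25, interval 0.22 to 0.29). PHF19, which carries a Tudor domain that binds methylated histone H3, had 9.82 CPM in ectoderm and 11.8 CPM in hPSC (-0.26, -0.39 to -0.13). JARID2 and AEBP2, the zinc finger protein of PRC2.2, had ratios of 0.03 (0.02 to 0.05) and 0.04 (-0.02 to 0.10). The PRC2.1 genes MTF2 and PHF19 made up 18.5% of the UMIs of the 4 accessory genes in ectoderm (18.2 to 18.7%). In hPSC they made up 16.6% (16.4 to 16.9%). PHF1, a further Polycomb-like gene outside the member list, is not in these shares. It had 15.4 CPM in ectoderm and 15.1 CPM in hPSC.

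**Figure D2:**
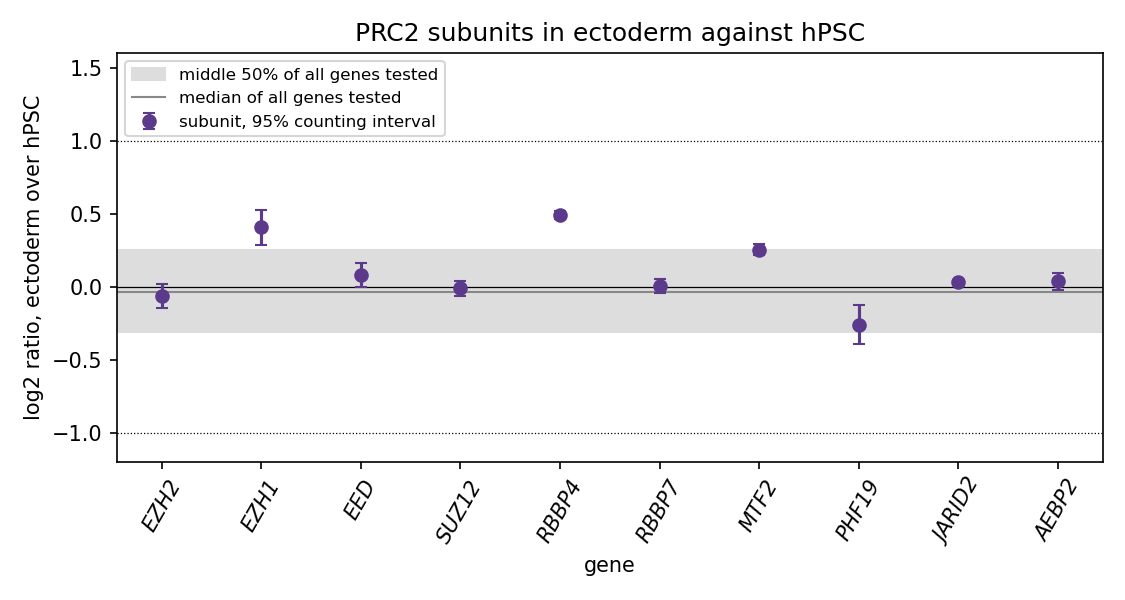
Log2 ratio of each subunit, ectoderm over hPSC, with 95% counting intervals. The grey band holds the middle 50% of all genes at 20 CPM or more and the dotted lines mark the size needed for a call. RBBP4 at 0.49 and EZH1 at 0.41 lie above the band, MTF2 at 0.25 lies at its edge, and no subunit reaches a dotted line.

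Other Polycomb genes were read the same way, from lists of genes with known roles. Of 5 other PRC2 partners 4 reached 5 CPM, 2 reached the 20 CPM needed for a call and 0 were called. LCOR, a PRC2.1 partner, had 64.8 CPM in ectoderm and 42.1 CPM in hPSC (log2 ratio 0.62), and EPOP, another PRC2.1 partner, had 3.89 CPM in ectoderm and 6.20 CPM in hPSC (-0.67). Of 26 genes of PRC1, the complex that ubiquitinates histone H2A, 23 reached 5 CPM and 12 reached 20 CPM, with 1 called higher and 0 lower. The median of those 23 was 0.19 beside -0.03 for all genes at 20 CPM. PHC2 had 10.8 CPM in ectoderm and 2.62 CPM in hPSC (2.05) and BMI1 had 8.61 CPM in ectoderm and 2.39 CPM in hPSC (1.85), both under the level needed for a call. PHC1, a paralogue of PHC2, was lower in ectoderm, with 157 CPM there and 272 CPM in hPSC (-0.79), and PCGF5 had 3.47 CPM in ectoderm against 5.72 CPM in hPSC (-0.72).

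The H3K27 demethylases, which remove the mark, showed small ratios: -0.15 for KDM6A and 0.30 for KDM6B, with 0 of 2 called. Of the PR-DUB genes, which remove the H2A mark, 7 of 8 reached 5 CPM, 3 reached 20 CPM and 0 were called, with MBD6 at 0.72 and ASXL1 at 0.68 and FOXK2 at -0.32 and FOXK1 at -0.13. Of 11 trithorax genes, which methylate H3K4, 11 reached 5 CPM, 8 reached 20 CPM and 0 were called, between -0.28 for MEN1 and -0.14 for RBBP5 at one end and 0.47 for KMT2A and 0.59 for SETD1B at the other. Among 25 genes of other complexes that use RBBP4 or RBBP7, 24 reached 5 CPM, 16 reached 20 CPM and 0 were called. SAP30, of the Sin3 deacetylase complex, had 15.0 CPM in ectoderm and 6.49 CPM in hPSC (1.21), under the level needed for a call, and LIN54, of the DREAM complex, had a ratio of 0.81. CHAF1A, of the CAF-1 chromatin assembly complex, had 48.1 CPM in ectoderm and 68.6 CPM in hPSC (-0.51), and SIN3B had -0.45.

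Of 49 developmental genes known as Polycomb targets in pluripotent cells, 6 reached 5 CPM and all 6 of these were called higher in ectoderm; a gene could reach that level through ectoderm alone, so the share of the 6 carries no weight. SOX1, a neural regulator, had 43.7 CPM in ectoderm and 0.637 CPM in hPSC, and OLIG3 had 46.4 CPM in ectoderm and 1.77 CPM in hPSC. SIX3 had 439 CPM in ectoderm and 44.0 CPM in hPSC, and SIX6 had 46.3 CPM in ectoderm and 13.8 CPM in hPSC. No UMI was seen for 10 of the 49 in ectoderm and for 11 in hPSC. Several of these genes are also among the neural markers above.

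The level of most subunits varied little with the share of TOP2A and MKI67 UMIs in a cell. The widest changes were those of PHF19 in ectoderm and MTF2 in hPSC. TOP2A had 347 CPM in ectoderm and 309 CPM in hPSC, and MKI67 had 121 CPM in ectoderm and 140 CPM in hPSC. Within each library, cells with no such UMI formed one group and the rest were cut into 3 equal groups (low, middle and high) by the share; the 2 genes were left out of the totals. The groups differ in depth, with medians of 5168 UMIs in high and 3279 UMIs in none in ectoderm, and 6158 UMIs in high and 3972 UMIs in none in hPSC. A cell with few UMIs can fall in the none group for lack of depth. S phase genes summed to 3234 CPM in none and 2903 CPM in high in ectoderm. In hPSC they summed to 3258 CPM in none and 2864 CPM in high. High over none therefore does not set dividing against non-dividing cells. Of the 10 members 8 reached 20 CPM and 0 were called in either direction in either library. EZH1 and PHF19 stayed under 20 CPM in this and the later groupings by shares of UMIs, so they could not be called. The background was 1.47% higher and 0.0167% lower of 6000 genes in ectoderm, and 1.63% higher and 0.0838% lower of 5969 genes in hPSC. So few genes were called that 0 called members carries little weight. The median log2 ratio of the members, high over none, was 0.09 in ectoderm and 0.02 in hPSC, beside 0.03 and 0.06 for all genes tested.

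MTF2 had the clearest relation of the 10 in hPSC. Its level there was 116, 121, 123 and 142 CPM in the none, low, middle and high groups, and the high group stood apart from the other 3. The log2 ratio of high over none was 0.28 (interval 0.21 to 0.36) in hPSC, above 86.6% of genes tested. In ectoderm the levels were 148, 141, 151 and 161 CPM from none to high and the ratio was 0.12 (0.05 to 0.19). That ectoderm ratio lay above 69.1% of genes tested, between the quartiles of all genes tested (-0.07 and 0.15). PHF19, also a Polycomb-like gene, had 8.64, 8.30, 10.3 and 12.02 CPM from none to high in ectoderm, a ratio of 0.48 (0.19 to 0.77). That ratio lay above 96.6% of genes tested, though PHF19 itself was under the 20 CPM that those genes reached. In hPSC PHF19 had 11.3, 12.04, 12.2 and 11.6 CPM from none to high, with a ratio of 0.04 and overlapping intervals throughout. Whether the ratio of PHF19 or MTF2 differs between the libraries was not tested.

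The catalytic core showed no such gradient over these groups. EZH2, often used as a marker of dividing cells, had 29.1, 27.2, 26.9 and 30.8 CPM from none to high in ectoderm, and 30.2, 29.6, 29.5 and 29.4 CPM in hPSC. Its log2 ratio of high over none was 0.08 (-0.09 to 0.24) in ectoderm and -0.04 (-0.20 to 0.12) in hPSC. The ratio of SUZ12 was -0.06 in ectoderm and -0.002 in hPSC, and that of RBBP4 was -0.03 in both libraries, with intervals that include 0. In ectoderm JARID2 had 661 CPM in high and 616 CPM in none (ratio 0.10, 0.07 to 0.14), and with cells thinned to 2500 UMIs the ratio was 0.06. In hPSC it had 664 CPM in high and 632 CPM in none (0.07, 0.04 to 0.11), and centred on the median of all genes the ratio was 0.02. RBBP7 had 77.7 CPM in high and 70.7 CPM in none in hPSC (0.14, 0.03 to 0.24), and 0.10 in ectoderm with an interval that includes 0. EED, EZH1 and AEBP2 had ratios between -0.04 and 0.16 with intervals that include 0. At equal depth EZH1 in hPSC was at 0.33, against 0.03 with all UMIs.

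**Figure D3:**
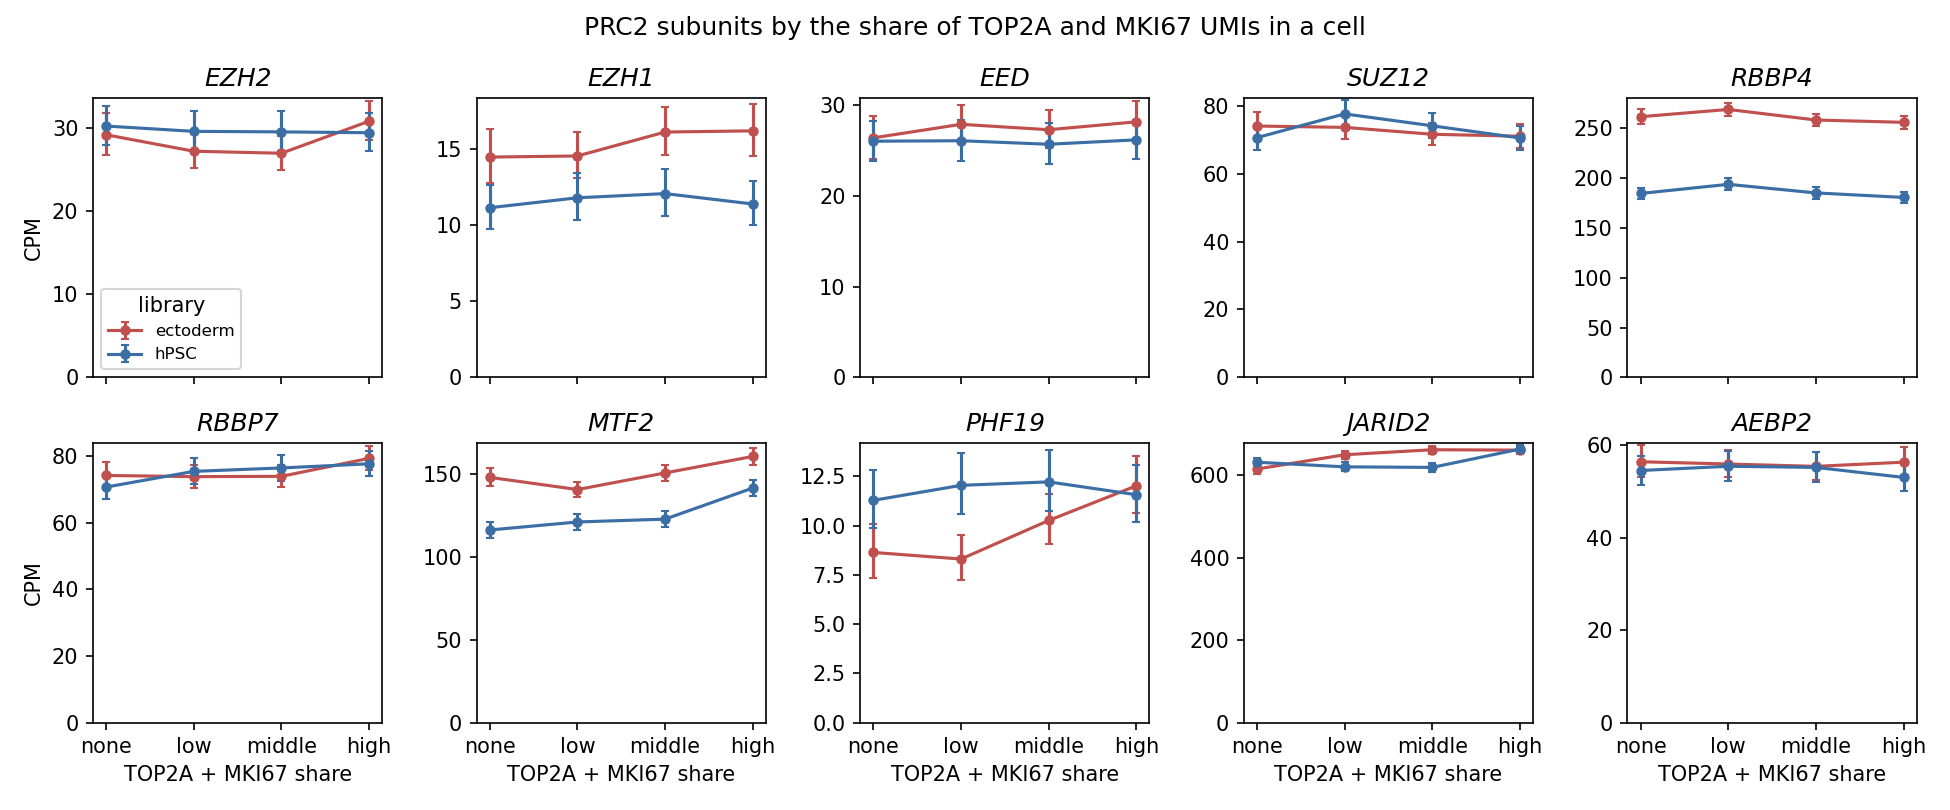
Level of each subunit in CPM (axes start at 0) in cells with no TOP2A or MKI67 UMI and in the low, middle and high groups of the remaining cells, for ectoderm and hPSC. Bars are 95% counting intervals. MTF2 is highest in the high group of both libraries, PHF19 reaches 12.02 CPM in the high group of ectoderm, and EZH2, SUZ12 and RBBP4 run close to level.

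Cell by cell, the relation was weak for every member. The Pearson correlation of a member's UMIs per 10000 with the share of TOP2A and MKI67 lay between -0.01 and 0.03 over 16360 ectoderm cells and between -0.01 and 0.06 over 15326 hPSC. The highest was MTF2 in hPSC, at 0.06 beside a median of 0.01 and a 95th percentile of 0.05 over 5760 genes. With every cell thinned to 2500 UMIs it was 0.042, and the 95th percentile over the same genes was 0.037. The cells share a library and the counts are sparse, so these values are descriptions.

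SUZ12 and RBBP4 were among the members that were higher in cells with more S phase gene UMIs in both libraries. Cells were cut into 3 equal groups by the summed share of 43 S phase genes, and the highest (S-high) was set over the lowest (S-low). The S phase genes summed to 3125 CPM in ectoderm against 3216 CPM in hPSC, and 54 genes of G2 and M phase to 8604 CPM in ectoderm against 8507 CPM in hPSC. Again 0 of 10 members were called, with a background of 0.085% higher and 0% lower of 5881 genes in ectoderm and 0.12% higher and 0.0514% lower of 5841 genes in hPSC. SUZ12 had 84.8 CPM in S-high and 62.7 CPM in S-low ectoderm cells, and 84.2 CPM in S-high and 62.4 CPM in S-low hPSC. Its log2 ratio was 0.43 in both libraries, with intervals of 0.35 to 0.52 in ectoderm and 0.34 to 0.52 in hPSC, and lay above 97.2% of the genes tested in ectoderm and 98.1% in hPSC. With cells thinned to equal depth before grouping, the ratio was 0.36 in ectoderm and 0.31 in hPSC.

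EZH2 had 34.5 CPM in S-high and 24.6 CPM in S-low ectoderm cells, a log2 ratio of 0.49 (0.35 to 0.63) that lay above 98.3% of genes tested. In hPSC it had 31.6 CPM in S-high and 28.0 CPM in S-low cells, a ratio of 0.17 (0.03 to 0.32). At equal depth these ratios were 0.28 in ectoderm and 0.24 in hPSC, closer to each other. RBBP4 had a ratio of 0.24 in both libraries. Its level was 285 CPM in S-high and 242 CPM in S-low ectoderm cells. In hPSC it was 201 CPM in S-high and 170 CPM in S-low cells. The RBBP4 ratio lay above 84.0% of genes tested in ectoderm and 87.6% in hPSC. At equal depth it was lower, at 0.16 in ectoderm and 0.21 in hPSC. RBBP7 had a ratio of 0.29 in ectoderm and 0.11 in hPSC, and AEBP2 had 0.25 in ectoderm and 0.12 in hPSC. EED had 0.20 in ectoderm and 0.06 in hPSC, and JARID2 had 0.07 in ectoderm and 0.09 in hPSC. At equal depth RBBP7 had 0.26 in ectoderm and 0.22 in hPSC, EED had 0.34 in ectoderm and 0.03 in hPSC, AEBP2 had 0.27 in ectoderm and 0.07 in hPSC, and JARID2 had 0.07 in ectoderm and 0.04 in hPSC. The ratios of MTF2, PHF19 and EZH1 had intervals that include 0 in both libraries; at equal depth EZH1 was at -0.22 in ectoderm and -0.32 in hPSC. The median of the members was 0.22 in ectoderm and 0.10 in hPSC, beside 0.07 and 0.05 for all genes tested.

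Grouped instead by the genes of G2 and M phase, the order of the members changed. Of the 10, 0 were called, beside 0.916% higher and 0.017% lower of 5898 genes in ectoderm and 1% higher and 0.119% lower of 5891 genes in hPSC. PHF19 had 12.7 CPM in G2M-high and 8.50 CPM in G2M-low ectoderm cells (log2 ratio 0.58, 0.33 to 0.83), and 0.13 in hPSC with an interval that includes 0. MTF2 had 138 CPM in G2M-high and 114 CPM in G2M-low hPSC (0.28, 0.21 to 0.35), and 159 CPM in G2M-high and 142 CPM in G2M-low ectoderm cells (0.16, 0.10 to 0.22). AEBP2 went the other way, at -0.15 in ectoderm and -0.29 in hPSC, and at equal depth at -0.25 in ectoderm and -0.27 in hPSC. SUZ12 was at -0.13 in ectoderm and -0.14 in hPSC, but at 0.00 in hPSC at equal depth. TOP2A and MKI67 belong to the G2 and M phase list, so this grouping overlaps with the one above.

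**Figure D4:**
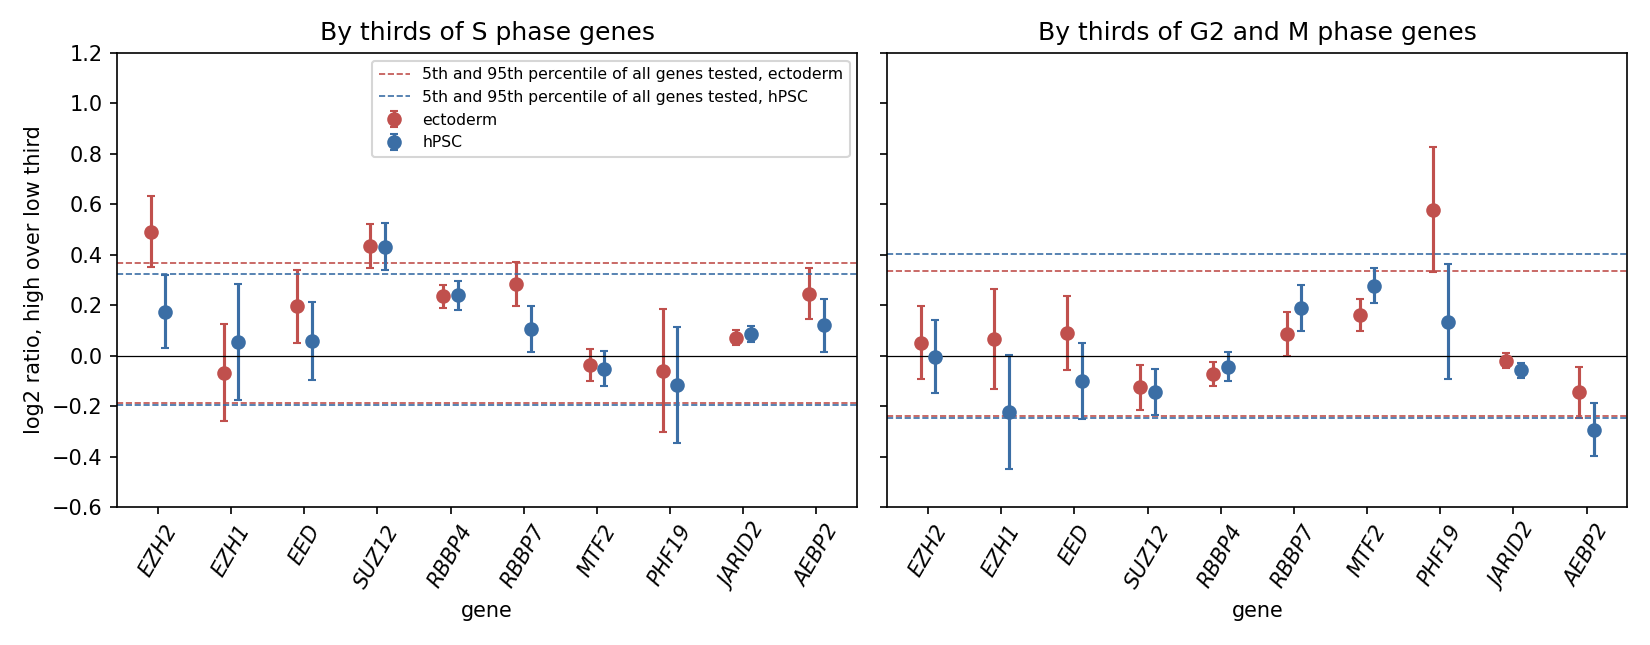
Log2 ratio of each subunit between the highest and lowest of 3 equal groups of cells, by S phase genes (left) and by G2 and M phase genes (right), for ectoderm and hPSC. Bars are 95% counting intervals and dashed lines are the 5th and 95th percentiles of all genes tested. On the left SUZ12 lies above the upper line in both libraries, and EZH2 lies above it in ectoderm. On the right PHF19 lies above the upper line in ectoderm, and AEBP2 lies below the lower line in hPSC.

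Crossing both groupings gave 9 groups of cells per library and 18 in all, over which members were compared with each other and with 5203 other genes at 20 CPM or more. These correlations used log2 CPM centred within each library, and the groups share their libraries, depth and cell cycle order. SUZ12 and RBBP4 followed each other most closely of the member pairs (r = 0.91), and MTF2 and AEBP2 ran most opposite (r = -0.75). The gene closest to SUZ12 was ICMT (r = 0.97), followed by UBE2G2 and PPP1R15B (both 0.96). HAUS6 and MCM3 were closest to RBBP4 (0.97 and 0.96), with IVNS1ABP at 0.95, and FAM136A and HES6 to EZH2 (0.92 and 0.90), with PCLAF at 0.89. MTF2 was nearest to ESRP1 (0.97), ELOVL5 (0.95) and PHF7 (0.93), and AEBP2 to HSPD1 (0.90), CTNNAL1 and RBM39 (both 0.89). RBBP7 was nearest to SON (0.92), EIF4A3 (0.91) and NUDC (0.90), EED to HMGA2 (0.80), PCLAF (0.79) and MACC1 (0.78), and JARID2 to ARHGEF7 (0.77), TRIM71 (0.75) and LPCAT1 (0.72). The median correlation over the 5203 genes was 0.24 for SUZ12 and 0.09 for JARID2.

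At equal depth the variance of JARID2 UMIs over their mean was 1.23 in ectoderm and 1.25 in hPSC, and that of the other 9 members lay between 0.99 and 1.04 in both libraries. This ratio rises with the mean, which was highest for JARID2 (1.59 thinned UMIs per cell in ectoderm and 1.56 in hPSC), so no order of variability is read from it. Pairs of members showed almost no relation across cells, with r between -0.01 and 0.03 over 45 pairs in each library. The highest in ectoderm was that of MTF2 and AEBP2 (0.03), the pair that ran most opposite over the cell cycle groups above. In hPSC that pair had 0.002, and the highest was SUZ12 and JARID2 (0.03). The opposite course of MTF2 and AEBP2 was therefore seen over those groups and not from cell to cell. By neural markers in ectoderm, JARID2 had 603 CPM in the highest and 690 CPM in the lowest group (log2 ratio -0.19, -0.22 to -0.17). By pluripotent markers in hPSC, JARID2 had 673 CPM in the highest and 599 CPM in the lowest group (0.17, 0.14 to 0.20). AEBP2 had -0.10 in ectoderm and 0.18 in hPSC, and EZH1 had 0.27 in hPSC. The splits use different markers in each library, so their signs are not compared. In these groupings 0 of 10 members were called, beside 0.151% higher and 0.101% lower of 5960 genes in ectoderm and 0% of 5901 genes in either direction in hPSC.

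Levels were also compared by the share of MALAT1, a nuclear RNA whose share can rise where cytoplasmic RNA is lost. The libraries differed in this share. Its median was 1.41% of UMIs in the high and 0.446% in the low ectoderm group, against 0.682% and 0.216% in hPSC. Of the 10 members 0 were called, beside 0.345% higher and 0.0164% lower of 6081 genes in ectoderm and 0.333% higher and 0% lower of 6009 genes in hPSC. Between the highest and lowest of 3 equal groups by MALAT1 share, AEBP2 had 71.3 CPM in high and 40.7 CPM in low ectoderm cells (log2 ratio 0.81), and 64.7 CPM in high and 44.0 CPM in low hPSC (0.56). By the log2 ratio, in ectoderm the same grouping gave 0.35 for SUZ12, 0.37 for EZH2, 0.36 for MTF2, 0.30 for JARID2 and 0.13 for RBBP4. In hPSC it gave 0.14 for SUZ12, 0.08 for EZH2, 0.30 for MTF2, 0.23 for JARID2 and 0.08 for RBBP4. The median of all genes was 0.12 in ectoderm and 0.07 in hPSC. A like split by the share of mitochondrially encoded genes gave 0.24 for EZH2 in ectoderm and -0.08 in hPSC. SUZ12 had 0.11 in ectoderm and 0.19 in hPSC, and PHF19 had 0.08 and 0.31. For that split the median of all genes was 0.05 in ectoderm and 0.04 in hPSC. The part of the MALAT1 or mitochondrial share in the ectoderm over hPSC ratios was not tested. Nor was it tested in the S phase, TOP2A and MKI67 and state groupings.

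Of 80 named guide targets in ectoderm and 113 in hPSC, 0 were PRC2 members and 0 were other genes of the Polycomb lists. With cells that carried exactly 1 guide at 20 or more amplicon UMIs, 28 targets in ectoderm and 8 in hPSC had at least 50 cells, set over 159 non-targeting cells in ectoderm and 212 in hPSC. The deposited hPSC amplicon table holds 1048575 reads, against 4340737 in ectoderm; with its header that is the row limit of a common spreadsheet format, so it may be cut short and the hPSC guide calls may be incomplete. JARID2, with the most UMIs, had log2 ratios of targeting over non-targeting cells between -0.28 (HACL1) and 0.20 (PCCA) in ectoderm and between -0.17 and -0.01 in hPSC. The counting interval included 0 for 26 of 28 targets in ectoderm and for 8 of 8 in hPSC. RBBP4 lay between -0.17 and 0.27 in ectoderm and between -0.37 and 0.12 in hPSC, with intervals that include 0 for all 28 and all 8 targets. RBBP7 was lowest under NUCB1 guides in ectoderm, at -1.07 (-1.86 to -0.34) from 19 UMIs in targeting and 91 UMIs in non-targeting cells. That was the lowest of 28 targets, and it is named because of that value. Over the 28 targets, set against the same non-targeting cells, the median RBBP7 ratio was -0.32. The interval included 0 for 25 of them. For EZH1, EZH2, EED and PHF19 the non-targeting cells held between 7 and 37 UMIs per library, so their ratios rest on few UMIs.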

How the data were processed

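UMI counts per gene and cell were deposited by the authors as 1 matrix per library; STARsolo, STAR and GRCh38 are named in the submitters' processing notes, and settings for strand, introns and multiply mapped reads were not given in the sources used here. Guide calls came from deposited amplicon reads, for which the authors list barcode mismatch counts. Cells with at least 1000 UMIs, 500 genes and at most 20% mitochondrial UMIs were kept, which removed 0 ectoderm and 7 hPSC barcodes. UMIs were summed per library or group of cells and given as CPM. Log2 ratios carry exact conditional binomial 95% intervals and shares exact Clopper-Pearson intervals; both cover counting error only. For detection at equal depth every cell was thinned to 2500 UMIs, leaving out 1196 ectoderm and 583 hPSC cells. No doublet caller was run; leaving out the 5% of cells with the most UMIs was tried instead. All members were named; other genes were the 2 at each end of each list at 5 CPM or more, and the 3 closest by correlation to each member at 20 CPM or more. The members and lists were chosen with earlier results of these data known. Splits by MALAT1 and by mitochondrially encoded genes and thinning of the S and G2 and M groupings were added after seeing the data. So were a second cell cycle weighting and the sums with SYNC, TXLNG and SUZ12P1. The ratio and call rule were tested on simulated data. Python 3.11.15, NumPy 2.4.6, SciPy 1.17.1 and pandas 2.3.3 were used, with GENCODE 29 gene positions.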

Additional observations from a re-analysis of the deposited data

How the results depend on the processing

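The number of members called between ectoderm and hPSC was 0 under 8 of the 9 alternatives tried, and 1 when only cells with non-targeting guides were compared; that gene was EZH1, with a log2 ratio of 1.23 from 23 UMIs in ectoderm and 12 UMIs in hPSC. The cause was not tested, and this subset holds 159 ectoderm and 212 hPSC cells. In it EZH2 at -0.39, SUZ12 at -0.18, MTF2 at 0.41, AEBP2 at -0.28, RBBP4 at 0.38 and RBBP7 at 0.22 also left the counting interval of the main ratio. EED at 0.04, JARID2 at 0.03 and PHF19 at -0.22 stayed within it. The number called by TOP2A and MKI67 was 0 under all 7 alternatives in each library. RBBP4, ectoderm over hPSC, lay between 0.38 and 0.53. Over single members and alternatives, 79 values of ectoderm over hPSC stayed within their counting interval and 14 did not. For high over none these numbers were 67 and 3 in ectoderm, and 65 and 5 in hPSC. Lowering the CPM filter to 5 CPM, or dropping it, cannot change a log2 ratio. Those values count as within their interval by construction. With all G2 and M phase genes in place of TOP2A and MKI67, JARID2 had -0.02 in ectoderm and -0.06 in hPSC, and AEBP2 -0.14 and -0.29. No paired analysis was possible because each group is 1 library. Depth limits EZH1, EZH2, EED and PHF19 most, each found in under 8% of cells at 2500 UMIs.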
